A study of Mus musculus with 21 samples.

Results

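Bone marrow-derived macrophages from mice fed a Western diet were compared with macrophages from chow-fed mice, using only those Western diet libraries in which Ccl5 was low. Ccl5 encodes a chemokine that macrophages induce strongly in response to lipopolysaccharide (LPS), the bacterial cell wall component that signals through the receptor TLR4. The members were chosen by their deposited Ccl5 value, under 100 in a library labelled Western diet, and are 3 of the 6 libraries so labelled and 3 of the 21 libraries in the series. They were set beside the 3 untreated chow libraries of the same table (replicates 4 to 6). The grouping used a measured gene and ignored the LPS label: 1 of the 3 libraries was labelled Western diet without LPS (replicate 2), and the other 2 were labelled Western diet with LPS (replicates 1 and 2). Every gene of these libraries was therefore open to the choice of members, and the comparison of the low-Ccl5 libraries with chow is a description without a test.

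All libraries came from C57Bl6/J mice. Donors ate standard chow or a Western diet high in fat, sugar and cholesterol, and the labels give 24 weeks both as the length of feeding and under age. Marrow was cultured in medium containing L929 cell supernatant, a usual source of macrophage growth factor, and LPS-labelled cultures received 100 ng/ml LPS for 24 h from day 7. The chow libraries of this table were labelled without LPS. A separate table of the same series held untreated chow replicates 1 to 3, whose values are given beside the others. It is not known whether both tables share a normalization, and every gap or count across them carries that limit. The labels do not say whether a replicate number is an animal or a culture, so p-values measure only the spread between these samples.

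Macrophages scavenge lipoproteins and dying cells, degrade them in lysosomes, and store or export the cholesterol that results. Cells loaded with lipid typically carry a set of transcripts for fatty acid binding, lysosomal enzymes and secreted matrix proteins such as osteopontin. LPS drives a different set of inflammatory cytokines, chemokines and interferon-stimulated genes, while arginase 1 is a classical marker of alternatively activated macrophages.

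Ccl5 (chr11:83525778-83530518, GRCm38) was 13.7 in the low-Ccl5 library labelled without LPS, and 0.463 and 10.5 in those labelled with LPS. The highest value inside the limit was thus 13.7, and the lowest outside it was 6905, in the library labelled Western diet with LPS, replicate 3. The remaining libraries labelled Western diet, both labelled without LPS (replicates 1 and 3), had Ccl5 values of 7846 and 10973. Chow replicates 4 to 6 had 2.06, 2.38 and 1.57. The low-Ccl5 libraries lay on both sides of chow, since the library labelled with LPS, replicate 1, was below all 3 chow libraries and the other 2 were above them.

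The LPS labels did not separate libraries by LPS-responsive transcripts. Genes changed at least 4-fold by LPS in the chow macrophages of the other table (limma, adjusted p under 0.05) gave a list of 249 raised and 332 lowered genes among the 9994 autosomal genes kept here. Of the 249 raised genes, 12 were at least 2-fold above the highest chow library in the low-Ccl5 library labelled without LPS. This was 4.82%, beside 0.42% of all genes kept. In the low-Ccl5 libraries labelled with LPS, 15 (6.02%, beside 3.07% of all genes) and 20 (8.03%, beside 3.35%) were. In the 3 libraries with high Ccl5 the count was 225, 227 and 217 (90.4%, 91.2% and 87.1%). All genes there gave 7.54%, 8.03% and 6.02%. Of the 332 lowered genes, 3, 8 and 10 were at least 2-fold below the lowest chow library in the low-Ccl5 libraries. In the same order these were 0.904%, 2.41% and 3.01%, beside 0.41%, 2.18% and 2.58% of all genes. In the high-Ccl5 libraries 276, 272 and 227 were (83.1%, 81.9% and 68.4%, beside 20.7%, 22.6% and 11.6%). Both low-Ccl5 libraries labelled with LPS thus lacked most of this response, and 2 libraries labelled without LPS carried it. The labels of these libraries may therefore not give their treatment, which was not tested, and below an LPS label only names a library.

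Cytokines that LPS induces were read in the same libraries. Il1b, which encodes interleukin-1 beta, was 2.42 in the low-Ccl5 library labelled without LPS and 0.0651 and 0.596 in those labelled with LPS, beside 2.77, 1.69 and 2.19 in chow. Tnf, encoding tumour necrosis factor, was 17.8 in the library labelled without LPS and 2.41 in each labelled with LPS, beside 8.57, 12.4 and 7.87 in chow. Nos2, the inducible nitric oxide synthase, did not exceed 0.173 in any of the 6 libraries and reached 229 among the high-Ccl5 libraries. Of 12 kept LPS cytokines, 1 (Il1a) lay above chow in every low-Ccl5 library and 1 (Il10) below (8.33% each, beside 7.95% of all genes above and 11.4% below). Il1a was 0.186, 0.956 and 2.11 beside at most 0.179 in chow, a gap of 0.0082, and Il10 was at most 0.764 in all 6 libraries. Of 37 interferon-stimulated genes, 2 lay above and 2 below (5.41% each), with a median difference of -0.12 beside -0.05 over all genes kept. Some genes of both lists, such as Il10, Ifit1, Ifit3 and Mx2, were under 1 in all 6 libraries and were kept through the high-Ccl5 libraries. For such genes these counts and differences say little. These differences are taken between the middle library of each group on the log2(value + 1) scale, as are all median differences of lists.

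**Figure D1:**
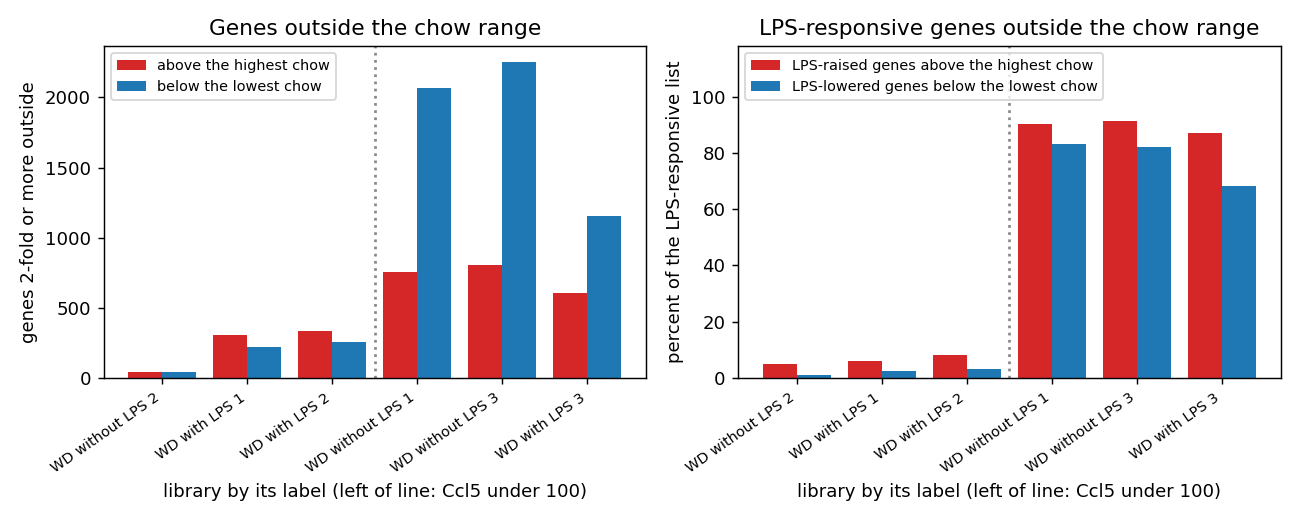
Left, genes at least 2-fold above the highest or below the lowest of chow replicates 4 to 6 in each library labelled Western diet, of 9994 autosomal genes. Right, the percentage of LPS-raised (249) and LPS-lowered (332) genes in the same position. Libraries left of the dotted line have Ccl5 under 100: none of them exceeds 8.03% of the LPS-raised genes, while those to the right start at 87.1%. Of all genes, 0.42% to 3.35% lay above chow in libraries on the left and 6.02% to 8.03% in those on the right.

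Chow 4 to 6 and the Western diet libraries also differed in sex-linked transcripts, which were left out of the main counts of genes. Xist, expressed from the inactive X chromosome of females, was 4.56, 3.55 and 7.72 in chow 4 to 6 and at most 0.00455 in every library labelled Western diet. Ddx3y, a gene of the Y chromosome, was 0 in all 3 chow libraries and 13.9, 3.80 and 3.01 in the low-Ccl5 libraries. Chow replicates 1 to 3 of the other table had Ddx3y at 9.99 to 15.1 and Xist at most 0.00186. The labels used here give no sex. Diet and sex cannot be told apart between chow 4 to 6 and the libraries labelled Western diet, for any gene described here. Nnt, a mitochondrial transhydrogenase gene partly deleted in the C57BL/6J strain, was 6.94, 9.50 and 8.89 in the low-Ccl5 libraries and 16.5, 14.4 and 14.7 in chow, with 13.2 to 15.9 in the other table.

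**Figure D2:**
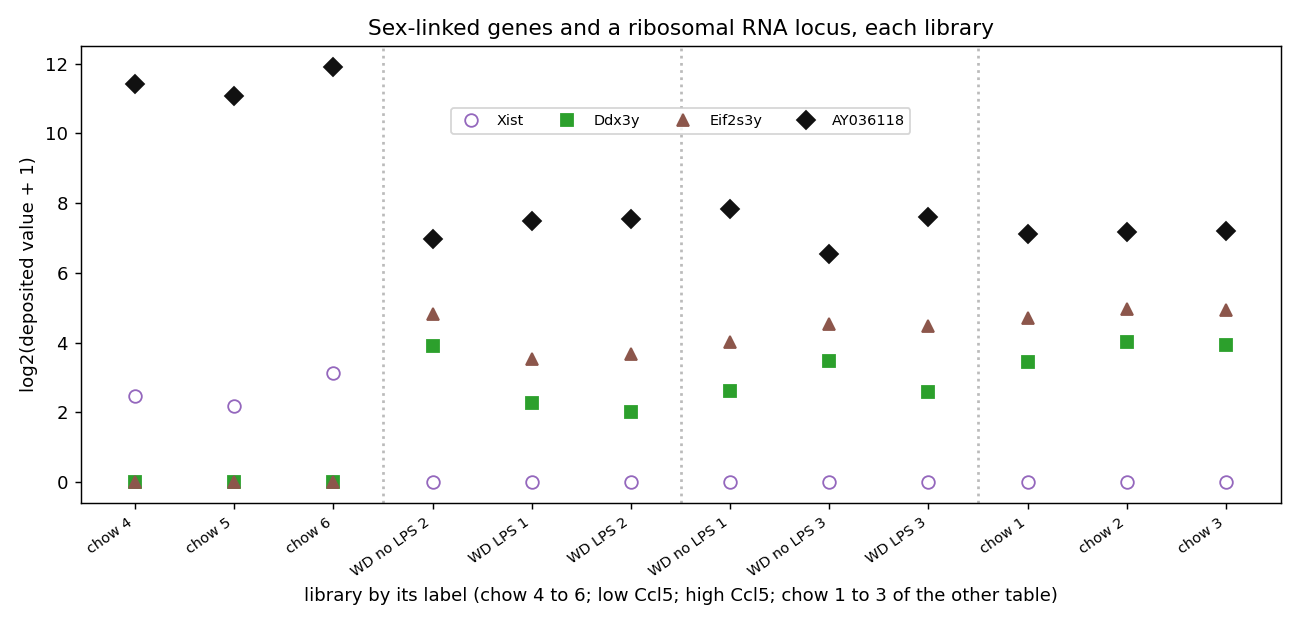
Deposited values on the log2(value + 1) scale of the X-linked RNA Xist, the Y-linked genes Ddx3y and Eif2s3y and the ribosomal RNA locus AY036118 in 12 libraries. Of these libraries, only chow replicates 4 to 6 show Xist (3.55 to 7.72), lack both Y-linked genes, and have AY036118 at 2144 or more.

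The 3 libraries differed in how far they stood from chow. In the library labelled without LPS, 42 genes (0.42%) were at least 2-fold above the highest chow library and 41 (0.41%) at least 2-fold below the lowest. In those labelled with LPS the counts were 307 (3.07%) and 335 (3.35%) above, and 218 (2.18%) and 258 (2.58%) below. The library labelled without LPS therefore set how many genes could separate all 3 from chow.

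A gene was called apart where all 3 low-Ccl5 libraries lay on 1 side of all 3 chow libraries and the nearest pair differed at least 2-fold, a gap of 1 on the log2(value + 1) scale. This held for 27 of 9994 genes (0.27%), of which 14 were higher (0.14%) and 13 lower (0.13%) than chow. Without the low-Ccl5 library labelled without LPS, 425 genes were apart. Without any gap beyond the lack of overlap, 795 genes were higher (7.95%) and 1140 lower (11.4%). The same measure between chow replicates 1 to 3 of the other table and chow replicates 4 to 6 gave 360 genes (3.6%), 229 higher (2.29%) and 131 lower (1.31%), although both carry the chow label. With chow replicates 1 to 3 in place of replicates 4 to 6, the low-Ccl5 libraries had 5 genes higher (0.05%) and 20 lower (0.2%). The comparisons share libraries. For each of the 27 genes except Hexdc, Cmtm4, Txn2 and 1810049J17Rik, chow replicates 1 to 3 also did not overlap chow 4 to 6. They lay on the same side as the low-Ccl5 libraries, by any gap. Values of chow replicates 1 to 3 are given below for some of the genes. In these bulk libraries, fewer cells of a type and less RNA per cell cannot be told apart.

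The widest gap of all was in Arg1 (chr10:24915221-24927484), the gene of arginase 1, which splits arginine into ornithine and urea. Its value was 25.0 in the low-Ccl5 library labelled without LPS and 77.6 and 74.1 in those labelled with LPS, beside 0.401, 0.821 and 0.556 in chow. Every low-Ccl5 library was above every chow library, with a gap of 3.84. Chow replicates 1 to 3 of the other table had 1.74, 1.90 and 1.59, and the gap to these was 3.17. The high-Ccl5 libraries were also above chow, at 49.2, 46.4 and 391. By the diet label alone, with all 6 Western diet libraries against chow 4 to 6, Arg1 rose by 5.51 (SE 0.703) on the log2(value + 1) scale (limma, adjusted p = 0.0372). Arg1 is a member of the alternative activation list. Of its 10 kept genes 3 lay above chow in every low-Ccl5 library (30%, beside 7.95% of all genes). Below chow lay 1 (10%, beside 11.4%), and the median difference was 0.69. The second was Clec7a, the beta-glucan receptor dectin-1, at 7.03, 49.3 and 52.2 against 4.13 to 5.29 in chow. The third, Clec10a, had a gap of only 0.0027. Tgm2, a transglutaminase, was the lower member at 31.0, 22.1 and 26.5 against 50.5 to 58.8. Mrc1, the mannose receptor, overlapped between the groups: it was 303, 103 and 115 in the low-Ccl5 libraries and 182, 88.2 and 229 in chow.

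Among the 14 higher genes, Spp1 and Mmp12 encode secreted proteins of the extracellular matrix and its turnover. Spp1 (chr5:104435118-104441050), encoding osteopontin, was 682 in the library labelled without LPS and 1438 and 1081 in those labelled with LPS, beside 203, 214 and 304 in chow. Mmp12, the macrophage elastase, was 10.8, 22.3 and 48.1 in the same order, beside 3.25, 2.09 and 2.77. All 3 low-Ccl5 libraries were higher for both genes, with gaps of 1.16 and 1.48. Against chow replicates 1 to 3 of the other table the picture differed by gene: Spp1 was 1091 to 1323 there, which overlapped the low-Ccl5 libraries. Mmp12 was 113 to 132 there, above every low-Ccl5 library. Gm42793 lies within Spp1 on the same strand, so its reads cannot be told apart from those of Spp1.

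Ccl6, a chemokine of myeloid cells, was 24.9 in the library labelled without LPS and 200 and 314 in those labelled with LPS, beside 6.34, 4.32 and 5.51 in chow. Anpep, the surface aminopeptidase CD13, was 14.2, 134 and 155, beside 5.20, 4.86 and 5.11. In both genes the library labelled without LPS was the nearest to chow 4 to 6 by a wide margin. Chow replicates 1 to 3 of the other table overlapped the low-Ccl5 libraries, with Ccl6 at 231.5 to 275 and Anpep at 99.2 to 132. Marco, a scavenger receptor for bacteria and particles, was alike in the 3 low-Ccl5 libraries at 48.1, 45.8 and 38.2, beside 17.1, 10.6 and 14.5 in chow. It was far higher in chow replicates 1 to 3 of the other table, at 453, 423 and 484, and in the high-Ccl5 libraries, at 294 to 792. Mir1668, a short gene model inside an exon of Adgre5 on the same strand, was 5.60, 15.5 and 21.4 beside 1.20 to 1.35, and its reads cannot be told apart from those of Adgre5.

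The other 6 higher genes were Lgals3, Hexdc, Cmtm4, Txn2, Hnrnpf and Inpp5d. Lgals3 (chr14:47367751-47386160), encoding the secreted lectin galectin-3, was 348, 882 and 380 in the low-Ccl5 libraries and 64.9, 48.1 and 55.0 in chow. It rose by 2.81 (SE 0.344) by the diet label (limma, adjusted p = 0.0322). In chow replicates 1 to 3 of the other table, which share 1 label, Lgals3 was 1944, 444 and 2183. Each of the 6 spans at least 4-fold within some group of that table, as 186 of the 9994 genes do (1.86%). Hexdc, a hexosaminidase, was 26.2, 23.1 and 23.1 beside 2.29 to 3.19 in chow 4 to 6, while the replicates of the other table had 23.6, 2.43 and 21.9. Cmtm4, a membrane protein of the MARVEL domain family, was 9.21, 10.8 and 9.48 beside 0.671 to 0.891, and 8.56, 0.658 and 11.9 in the other table. The values of both genes thus fell at 2 separate levels among replicates of 1 label. Txn2, the mitochondrial thioredoxin, was 57.4 to 87.4 beside 9.90 to 11.7. Hnrnpf, an RNA-binding splicing factor, was 104 to 111 beside 20.7 to 23.2. Inpp5d, the phosphatase SHIP1 that dampens PI3K signalling, was 52.3 to 56.5 beside 10.4 to 13.3. Without genes of this kind, 19 of the 27 remained.

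**Figure D3:**
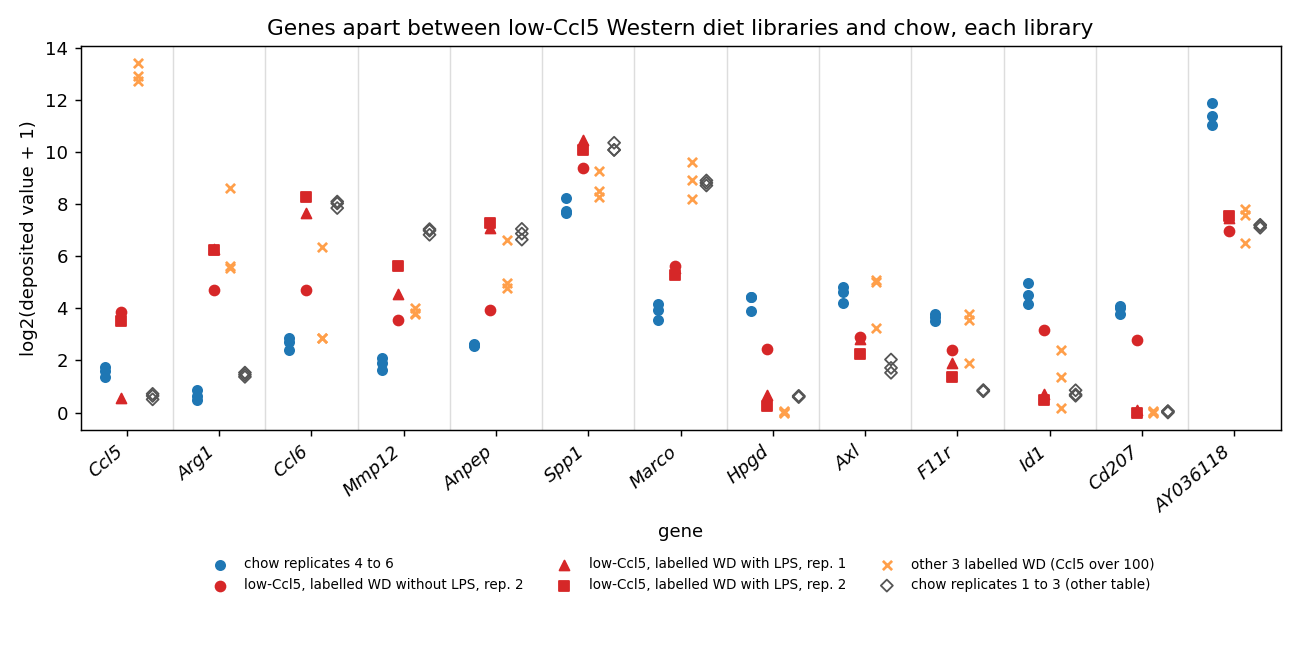
Deposited values on the log2(value + 1) scale for Ccl5, which chose the libraries, and 12 of the genes apart from chow, in every library of 4 sets. Each point is 1 library, and the marker shape gives the label of each low-Ccl5 library. Arg1 in low-Ccl5 libraries lies at 25.0 or more against 0.821 or less in chow replicates 4 to 6, while chow replicates 1 to 3 of the other table lie near the low-Ccl5 libraries for genes such as Spp1 and AY036118.

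The lower group was led by a ribosomal RNA locus. AY036118 (chr17:39847113-39848035) was 124 in the low-Ccl5 library labelled without LPS and 180 and 187 in those labelled with LPS, beside 2722, 2144 and 3862 in chow 4 to 6. CT010467.1 (chr17:39846353-39848827), which overlaps it on the same strand, was 88.0, 127 and 126 beside 1688, 1327 and 2566. These models carry 45S ribosomal RNA sequence, and their reads cannot be told apart. Chow 4 to 6 stood alone: AY036118 was 137, 145 and 148 in chow replicates 1 to 3 of the other table and 91.7 to 228 in the high-Ccl5 libraries. By the diet label AY036118 fell by 4.13 (SE 0.325; limma, adjusted p = 0.00367). How far library preparation or RNA quality set this level was not tested.

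Hpgd (chr8:56294585-56321043), which encodes the enzyme that inactivates prostaglandins, had the widest gap among lower protein-coding genes whose values did not jump within groups of the other table, at -1.44. Its value was 4.47 in the library labelled without LPS and 0.584 and 0.198 in those labelled with LPS, beside 20.5, 13.8 and 20.8 in chow. Hpgd fell by 3.68 (SE 0.520) by the diet label (limma, adjusted p = 0.0496), and chow replicates 1 to 3 of the other table lay at 0.507 to 0.552. Cd207, the lectin langerin, was 5.93, 0.0619 and 0 beside 16.2, 13 and 15.2. Id1, an inhibitor of helix-loop-helix transcription factors, was 8.02, 0.642 and 0.386 beside 21.8, 30.2 and 17.2. In all 3 genes the library labelled without LPS lay between chow and the libraries labelled with LPS.

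Axl, a receptor tyrosine kinase for the uptake of dying cells, was 6.47, 6.05 and 3.79 in the low-Ccl5 libraries and 27.0, 23.9 and 17.7 in chow. F11r, the junctional adhesion molecule JAM-A, was 4.28, 2.79 and 1.55 beside 12.7, 11.9 and 10.6. Zyx, the focal adhesion protein zyxin, was 5.06, 5.01 and 5.55 beside 13.5, 13.4 and 12.2. All 3 genes were lower in every low-Ccl5 library than in any chow library. Axl at 1.88 to 3.10 and F11r at 0.762 to 0.819 were lower still in chow replicates 1 to 3 of the other table. Tmem243, a small membrane protein, was 0.881 to 1.25 beside 10.3 to 11.7, and jumped between 1.12 and 7.61 among those replicates. The remaining lower genes were the gene models Gm10138, Gm28417, Gm9888 and 1810049J17Rik, each of which overlaps a gene on the opposite strand, so that without strand their reads cannot be told apart.

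The test by diet label, which uses no measured gene to group libraries, called 11 of 9994 genes (0.11%): 2 higher (0.02%), Arg1 and Lgals3, and 9 lower (0.0901%). LPS effects can enter this test, since 3 Western diet libraries and no chow library carried an LPS label. That label did not follow the response, however. LPS-raised genes lay above chow mainly in the 3 high-Ccl5 libraries, 2 of them labelled without LPS. Besides AY036118, CT010467.1 and Hpgd, the genes that fell were Cd34, Olfml3, Cpne8, Gm9888, Gm12895 and Gm12896. Cd34, a sialomucin of progenitor cells, was 1.72, 0.0913 and 0.212 in the low-Ccl5 libraries and 6.13, 4.37 and 4.35 in chow, and fell by 2.24 (SE 0.320; limma, adjusted p = 0.0496). Olfml3, a secreted olfactomedin-like protein, was 2.56, 1.14 and 0.464 beside 6.78, 7.69 and 5.77, with a fall of 2.03 (SE 0.283; limma, adjusted p = 0.0496). Cpne8, a calcium-dependent lipid-binding copine, was 0.268, 0.00117 and 0.0172 beside 1.25, 1.48 and 1.87. Gm12895 and Gm12896 have identical values and are near-identical copies, so they count as 1 signal. Each of these genes was also low in chow replicates 1 to 3 of the other table: Cd34 did not exceed 0.0852 and Olfml3 did not exceed 0.789 there.

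The number of calls by diet label rested on single libraries. Leaving out chow replicate 4, 5 or 6 left 0, 3 and 2 calls by limma, and with replicate 4 out 693 genes passed 0.05 before adjustment. Leaving out the Western diet libraries labelled without LPS, replicates 1, 2 and 3, gave 6, 400 and 2 calls. Leaving out those labelled with LPS gave 3, 2 and 3. The library whose removal raised the count to 400 (103 higher, 297 lower) was the low-Ccl5 library labelled without LPS. With median-ratio scaling a separate fit gave its own 11 calls, 4 higher and 7 lower. With all 9 libraries, 1489 genes passed 0.05 before adjustment.

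Most genes of cholesterol synthesis lay above chow. Of 22 kept genes of the pathway, 14 lay above chow in every low-Ccl5 library (63.6%, beside 7.95% of all genes) and 0 lay below, with a median difference of 0.90 beside -0.05 over all genes kept. No member reached a 2-fold gap, and none changed by the diet label test (limma). Fdps, which makes farnesyl diphosphate, was 51.7 in the low-Ccl5 library labelled without LPS and 109 and 99.0 in those labelled with LPS, beside 33.1, 30.7 and 30.5 in chow. Sqle, the squalene epoxidase, was 17.8, 26.2 and 25.1 beside 11.8, 11.2 and 11. Msmo1, a sterol demethylase, was 21.0, 28.1 and 31.8 beside 13.6, 12.3 and 12.6. In each gene the library labelled without LPS was the lowest of the 3 and still above chow. Chow replicates 1 to 3 of the other table had Fdps at 52.1 to 60.9 and Sqle at 16.6 to 19.1, which are also above chow 4 to 6. Leaving out the library labelled without LPS raised the count to 21 of 22, while 22.8% of all genes then lay above chow. LXR targets, which include genes of cholesterol export, had 0 of 11 kept genes above or below. Without the library labelled without LPS, 5 lay above (45.5%, beside 22.8% of all genes) and 3 below (27.3%, beside 33.5%). Abca1, the main cholesterol exporter, was 16.7 to 25.0 in the low-Ccl5 libraries and 19.1 to 27.7 in chow, which overlap.

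Genes of lipid-associated macrophages showed the largest shift of the lists with at least 10 kept genes, with a median difference of 1.34. Of 19 kept, 11 lay above chow in every low-Ccl5 library (57.9%, beside 7.95% of all genes) and 0 below. For all 11, chow replicates 1 to 3 of the other table also lay above chow 4 to 6. At least 2-fold apart were 3 (Lgals3, Mmp12 and Spp1, described above). Gpnmb (chr6:49036546-49070929), a glycoprotein of lipid-loaded macrophages, was 101 in the library labelled without LPS and 1784 and 2343 in those labelled with LPS, beside 57.6, 46.4 and 45.4 in chow. Atp6v0d2, a subunit of the proton pump, was 1.99, 3.96 and 7.22 beside 0.383 to 0.607. Neither gene overlapped between the groups, and for both the library labelled without LPS was the nearest to chow. In chow replicates 1 to 3 of the other table Gpnmb was 1368 to 2125 and Atp6v0d2 was 18.7 to 24.4.

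Of 27 kept lysosomal genes, 8 lay above chow (29.6%, beside 7.95% of all genes) and 0 below, with a median difference of 0.88. Ctsl, the protease cathepsin L, was 469, 485 and 521 beside 274 to 365, and Atp6v1h, a subunit of the lysosomal proton pump, was 71.4, 76.2 and 84.8 beside 54.5 to 57.1. Without the library labelled without LPS, 23 of the 27 lay above, as did 22.8% of all genes. Without chow replicate 4, 13 did, beside 11.8% of all genes. Of 23 kept genes of lipid droplets and fatty acid oxidation, 6 lay above (26.1%, beside 7.95% of all genes). Below chow lay 1 (4.35%, beside 11.4%), and the median difference was 0.48. Of the 6 above, Hilpda, Fabp4 and Lipa had gaps of only 0.0033, 0.012 and 0.053. With median-ratio scaling 4 of the 23 lay above (17.4%, beside 7.91% of all genes). Plin2, the coat protein of lipid droplets, was 96.1, 376 and 368 beside 59.9 to 64.1. Acadvl, a mitochondrial acyl-CoA dehydrogenase, was the lower member at 34.6, 27.8 and 29.1 beside 35.7 to 39.7. Without the library labelled without LPS, 13 of the 23 lay above, beside 22.8% of all genes. Ctsb and Ctsl among the 8 lysosomal genes, and Fabp5 and Lipa among the 6 lipid genes, are also counted in the lipid-associated macrophage list. For the 8 lysosomal and 6 lipid genes above chow, chow replicates 1 to 3 of the other table also lay above chow 4 to 6. Ctsl was 750 to 810 there and Plin2 384 to 472.

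Of 16 kept chemokines, 6 lay above chow (37.5%, beside 7.95% of all genes) and 0 below, with a median difference of 0.63. The list contains Ccl5, which chose the libraries and overlapped chow. Ccl7, which attracts monocytes, was 120 in the library labelled without LPS and 27.7 and 31.2 in those labelled with LPS, beside 8.34, 14.2 and 12 in chow. Ccl2, the main monocyte attractant, was 218, 82.0 and 76.1 beside 33.5, 51.7 and 39.8. For both genes the library labelled without LPS was the highest, the reverse of the order in the lipid genes. Ccl3, a macrophage inflammatory protein, was ordered the other way, at 30.3, 88.8 and 90.5 beside 13.9 to 16.8. Chow replicates 1 to 3 of the other table had Ccl7 at 28.1 to 40.8, Ccl2 at 49.2 to 81.7 and Ccl3 at 48.3 to 55.1.

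**Figure D4:**
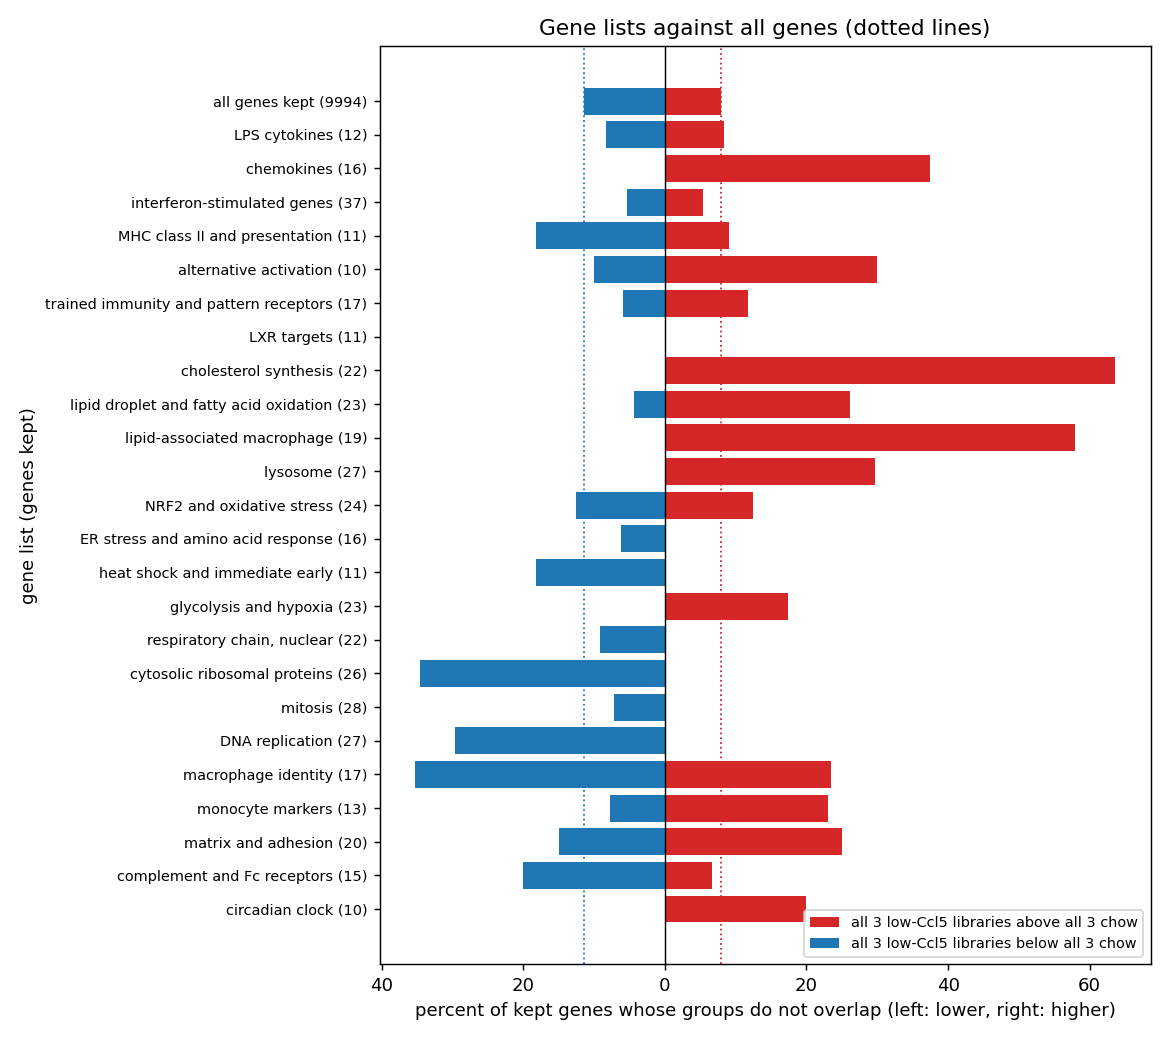
Percentage of the kept genes of each list that lay above (right) or below (left) all 3 chow libraries in all 3 low-Ccl5 libraries, for lists with at least 10 kept genes, with all 9994 genes at the top. Dotted lines mark 7.95% higher and 11.4% lower for all genes. Cholesterol synthesis reaches 63.6% and lipid-associated macrophage genes 57.9%, both with none lower.

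Some ribosomal protein and DNA replication genes lay below chow, and most members of both lists overlapped chow. Of 26 kept cytosolic ribosomal protein genes, 9 lay below chow in every low-Ccl5 library (34.6%, beside 11.4% of all genes) and 0 above, with a median difference of -0.33. Rplp1, an acidic protein of the ribosomal stalk, was 1176, 946 and 941 beside 1515, 1557 and 1441, and Rplp2, its partner, was 372, 287 and 262 beside 455 to 475. Of 27 kept DNA replication genes, 8 lay below (29.6%) and 0 above, with a median difference of -0.48. Tk1, the thymidine kinase of dividing cells, was 65.7, 55.1 and 58.9 beside 112, 96.4 and 106. Fen1, a flap endonuclease, was 4.48, 4.27 and 3.86 beside 5.92 to 6.44. For all of these 9 and 8 genes, chow replicates 1 to 3 of the other table also lay below chow 4 to 6. Without the library labelled without LPS, 25 of 26 and 24 of 27 lay below, and 33.5% of all genes did. Mitosis genes had 2 of 28 below and 0 above, with a median difference of 0.06. None of the genes on these 3 lists changed by the diet label test (limma). Genes below chow were richer in GC, with a median of 53.1% beside 49.7% over all genes, and had shorter transcripts, with a median of 2647 bases beside 3072. The part of base composition and length in these counts was not tested.

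Of 21 macrophage identity genes, 17 were kept, and 5 of the 21 were under 1 in all 6 libraries compared. Csf1r, the receptor of macrophage colony-stimulating factor, was 480 in the low-Ccl5 library labelled without LPS and 213 and 230 in those labelled with LPS, beside 581, 623 and 531 in chow. Of the 17, 6 lay below chow (35.3%, beside 11.4% of all genes) and 4 above (23.5%, beside 7.95%), with a median difference of -0.28, and the summed level was 3159 to 3491 beside 3686 to 4079. C1qc, a chain of complement C1q, was 311, 309 and 273 beside 417 to 503. Cd68, a lysosomal membrane protein of macrophages, was on the other side at 656, 1186 and 1276 beside 545 to 591. In 9 of the genes without overlap, chow replicates 1 to 3 of the other table lay on the same side of chow 4 to 6.

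Markers of other cell types were read in the same 6 libraries. Of 13 monocyte markers kept, 3 lay above (23.1%, beside 7.95% of all genes) and 1 below (7.69%, beside 11.4%). The summed level of the 15 listed was 753 to 1578 beside 1346 to 1662. None of 8 neutrophil markers kept was without overlap, with sums of 37.5 to 119 beside 44.3 to 67.0. The neutrophil marker S100a8 was 13.5, 47.2 and 44.0 beside 14.9, 22.9 and 14.2. Of 18 stromal and endothelial markers, 13 were under 1 in all 6 libraries and Dcn, Lum and Emcn were at 0. The 3 kept (Acta2, Col1a2 and Sparc) were all higher, beside 7.95% of all genes, but none by a 2-fold gap. Sums over the list were low, at 6.45 to 13.6 beside 2.88 to 4.77. No erythroid or megakaryocyte marker was kept, with sums of at most 1.56. The sums of dendritic cell markers (214 to 351 beside 321 to 367), lymphoid markers (4.20 to 7.43 beside 8.02 to 11.8) and mast cell markers (at most 0.284) did not reach above the chow level except in the mast cell list. The part of other cell types in the results above was not tested.

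Among themselves the 3 libraries fell apart by the LPS label. Both libraries labelled with LPS were at least 2-fold above the one labelled without LPS in 387 genes (3.87%) and at least 2-fold below it in 381 (3.81%). With 1 library on 1 side there is no test, and the genes named in this paragraph and the next were chosen after their values were seen. Fabp4 and Fabp5, carriers of fatty acids in the cytosol, had the widest gaps on the higher side, at 5.12 and 5.07. Fabp4 was 1.53 in the library labelled without LPS and 86.8 and 97.8 in those labelled with LPS, beside 1.36, 1.51 and 1.12 in chow. Fabp5 was 43.8, 1507 and 1819 beside 36.3, 29.2 and 30.6. The library labelled without LPS was near chow 4 to 6 for both, whereas chow replicates 1 to 3 of the other table lay near the libraries labelled with LPS, with Fabp4 at 95.2 to 103 and Fabp5 at 1347 to 1624. The lysosomal protease gene Ctsd was 2339, 14917 and 13709 beside 2517 to 2782, and Psap, the precursor of the saposins, was 667, 3994 and 3934 beside 637 to 688. Apoe, the apolipoprotein of cholesterol export, was 1027, 2794 and 3362 beside 985 to 1233. In the other table Ctsd was 7603 to 7690 and Apoe 2126 to 2635 in chow.

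On the lower side of the same split, Dmpk, a protein kinase best known from muscle, had the widest gap at -6.12. It was 86.3 in the library labelled without LPS and 0.257 and 0.144 in those labelled with LPS, beside 51.9, 48.7 and 55.8 in chow 4 to 6 and 1.64 to 2.26 in chow replicates 1 to 3. Gpr84, a receptor for medium-chain fatty acids that LPS induces, was 46.0, 0.873 and 0.934 beside 25.0, 43.8 and 23.9. Itgal, an integrin of leukocyte adhesion, was 98.5, 6.37 and 3.57 beside 68.8, 104 and 83.0. Cd14, the LPS co-receptor, was 35.5, 9.43 and 10.0 beside 38.8, 37.7 and 36.0. For these genes as well, the library labelled without LPS lay near chow 4 to 6, and the values of chow replicates 1 to 3 (Gpr84 0.739 to 0.955, Itgal 6.92 to 8.76, Cd14 7.21 to 7.79) lay near those labelled with LPS. Cx3cr1, the fractalkine receptor, was 12.4, 0.981 and 0.401 beside 13.8 to 18.7, and at most 0.194 in the other table. Tlr4 itself was 3.58, 2.61 and 2.40 beside 2.20 to 3.25. Whether the LPS label or another difference between libraries goes with this split cannot be told apart, since 1 library stands on 1 side.

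The other lists are read against 7.95% of all genes above chow and 11.4% below, and several were near or under these shares. Glycolysis and hypoxia genes had 4 of 23 above chow (17.4%) and 0 below, circadian clock genes 2 of 10 and 0, and genes of matrix and adhesion 5 of 20 above and 3 below. Itgb5, an integrin subunit, was the lower matrix gene with the widest gap, at 90.6, 108 and 94.2 beside 162 to 171. NRF2 and oxidative stress genes had 3 of 24 on each side (12.5%), and osteoclast markers 2 of 6 on each side. Complement and Fc receptor genes had 1 of 15 above and 3 below, antigen presentation by MHC class II 1 of 11 and 2, and pattern receptors 2 of 17 and 1. No member lay above in the respiratory chain (2 of 22 below, 9.09%), the endoplasmic reticulum stress response (1 of 16 below) or heat shock and immediate early genes (2 of 11 below).

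**Figure D5:**
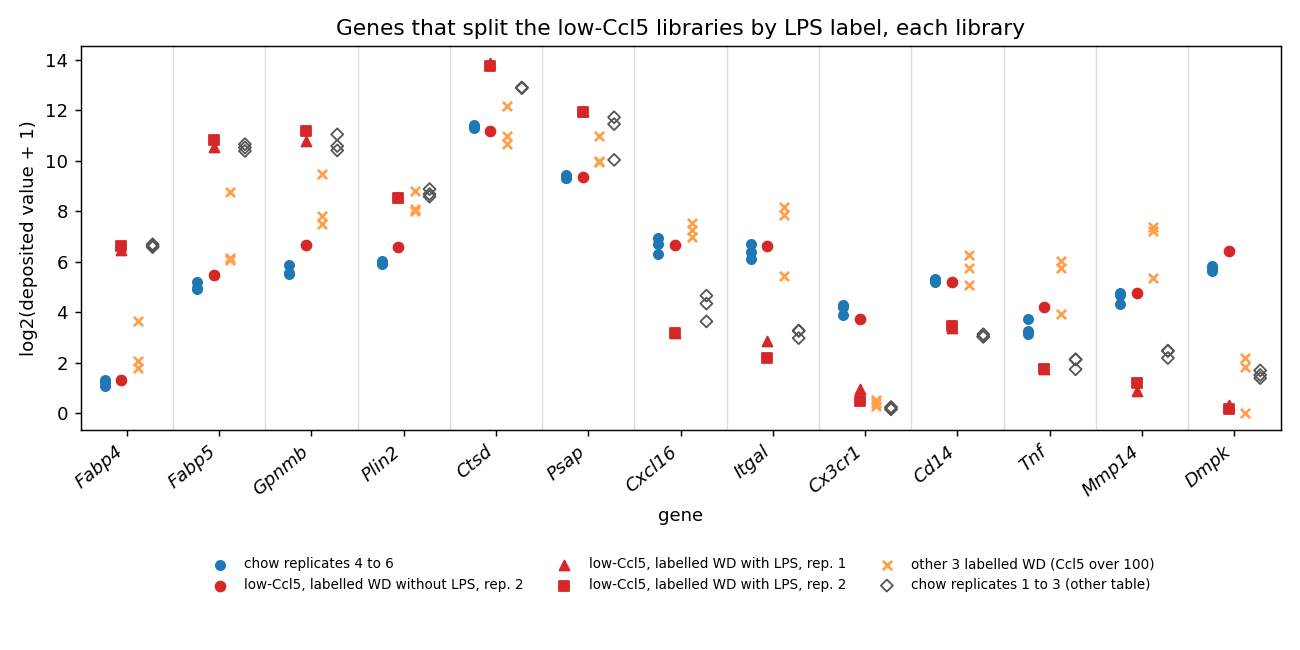
Deposited values on the log2(value + 1) scale of 13 genes chosen after their values were seen, in every library of 4 sets. Each point is 1 library. In most of these genes the low-Ccl5 library labelled without LPS (red circle) sits with chow replicates 4 to 6, and the low-Ccl5 libraries labelled with LPS (red triangle and square) sit with chow replicates 1 to 3 of the other table, as in Fabp4 at 86.8 and 97.8 beside 95.2 to 103.

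The values had no stated unit and their sums were 327210 to 385061 per library of the table, with 8803 to 9928 genes at 1 or more. Read depth was not used, so precision rests on the spread between libraries. The low-Ccl5 libraries and chow 4 to 6 were alike in scale: their median-ratio factors were 1.10 to 1.17, against 0.742 to 0.867 in the high-Ccl5 libraries.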

How the data were processed

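Per the labels, RNA was taken from bone marrow-derived macrophages, and the authors deposited 2 tables of gene values (9 and 12 libraries). The submitters' processing notes name HISAT2 2.0.5, Trim Galore 0.4.1, CASAVA 1.8.2 and FastQC 0.11.5, and builds mm10 and mm9 without their roles. The quantification step is not given in the sources used here, so the other abundance values are called deposited values, without a unit. Coordinates equal those of GRCm38 GENCODE M21 in 46894 of 50644 genes, and 50335 IDs matched a symbol. Displaced or duplicated entries were left out (35 entries of 18 IDs; 36 of 17 in the other table).

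Members and lists were chosen with earlier results of these data known. Autosomal genes at 1 or more in at least 3 of 9 libraries were kept (9994), on a log2(value + 1) scale computed from the deposited values, with a pseudocount of 1. That scale understates changes of low genes. A gene could be kept through the high-Ccl5 libraries alone, and the shares of all genes and of lists include such genes. The low-Ccl5 comparison has no test. The diet label was tested with limma 3.58.1 with a trend in R 4.3.3, all 9 libraries in the fit, Benjamini-Hochberg adjusted over 9994 genes, and genes under 0.05 after adjustment were called. The count test planned for raw counts was not applied, since the values are not counts. LPS-responsive genes were taken from a limma fit of the other table. The fit was tested on simulated data.

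Genes were named by the size of the gap, up to 10 each way with a value of at least 5 in the nearest library of the higher side. Calls of the diet label test, members of 33 lists by gap and a set of focal genes were added. Anpep, the unnamed gene models and the genes that split the low-Ccl5 libraries were named outside that rule, as were list members with smaller gaps. Python 3.11.15, pandas 2.3.3 and matplotlib 3.10.9 were used. Alternatives were other filters, pseudocounts, scaling, limits, covariates, chromosomes and libraries left out. Those on the other table, on genes that jump within its groups, on lists, and on the filter and pseudocount of the LPS-responsive list were added after seeing the data.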

Additional observations from a re-analysis of the deposited data

Results flagged for a closer look

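Genes of the Y chromosome, which no comparison used except the alternatives with all chromosomes, gave values in every low-Ccl5 library and 0 in chow replicates 4 to 6. The lowest value among the 3 low-Ccl5 libraries was 3.01 for Ddx3y, an RNA helicase, and 10.5 for Eif2s3y, a translation initiation factor. It was 1.41 for Uty and 1.81 for Kdm5d, both histone demethylase family genes.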

How the results depend on the processing

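The count of 27 genes apart from chow became 49 with a pseudocount of 0.1, 9 with a gap of at least 4-fold and 1935 with any gap, and lay between 32 and 425 with 1 library left out. It was 19 without genes that span 4-fold within a group of the other table. The highest count of 425 came without the low-Ccl5 library labelled without LPS. Limits of 1000 and 20 on Ccl5 picked the same libraries. With scaling, 25 of the 27 genes stayed apart. With chow replicates 1 to 3 of the other table as reference, 3 did, and 4 gaps changed sign: Mmp12 (-1.22), Marco (-3.11), Axl (0.22) and F11r (0.49). The cause was not tested.

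The 11 calls by diet label became 72 with no filter, 4 with a minimum of 5, 4 with a pseudocount of 0.1, 2 with only libraries labelled without LPS, 6 without a trend and 25 with all chromosomes. Western diet libraries labelled without LPS include 2 with high Ccl5, so that fit does not remove LPS-responsive differences. The fit with all chromosomes includes sex-linked genes. Leaving out 1 library gave 0 to 400. The replicate block gave 8 calls (2 higher, 6 lower; consensus correlation 0.038). Same-numbered Western diet libraries did not deviate together throughout (-0.68, 0.68 and 0.76 for numbers 1 to 3), so the numbers were not taken as pairs. The LPS-responsive genes, 606 in all, became 1105 with a pseudocount of 0.1. Over the single genes named, 83 diet label values lost and 24 gained the threshold in 793 refits, and 0 reversed. Depth in reads was not used, so low values have unknown counting error.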
